A study of Homo sapiens with 35 samples.

Results

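The borders of lamina-contacted domains were described in single KBM7 cells. KBM7 is a line of human leukaemia cells best known in a near-haploid form, and the labels give the clone used here, 5-5, as diploid (2N). A domain was a run of 10 or more adjacent 100-kb bins, each in contact with the nuclear lamina in at least 20% of 29 cells, and its borders were the 3 bins inside and the 3 bins outside each end. This rule gave 332 domains with 664 ends. Their borders took up 3658 of the 26584 bins with a value in every cell, 1992 of them inside a domain and 1824 outside an end. Of these, 158 bins lay inside one end and outside another. The contact frequencies of the 29 cells chose the borders, so those frequencies are given as a description, and tests were made in cells that did not take part in the choice.

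All cells came from 1 group and 1 clone. They expressed Dam, a bacterial adenine methylase, fused to lamin B1, which methylates nearby GATC sites once stabilised by Shield1 (0.5 nM, 15 h). Sorting kept, one by one, those double-positive for the Fucci reporters of the cell cycle that were among the 2% smallest. The values are ratios of observed to expected reads (OE) per bin, and an OE of 1 or more counted as contact of that bin in that cell. A call does not tell the homologues apart, and it sums contacts over the 15 h. No cells with unfused Dam were analysed here, so the part of accessibility in these values was not tested.

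Lamina-associated domains are long stretches of chromatin, mostly poor in genes and low in transcription, that lie against the filament network under the inner nuclear membrane. In population maps of human fibroblasts many of their borders are sharp and are marked by binding sites of the insulator protein CTCF, by CpG islands and by promoters directed away from the domain. A border seen in a population is an average, and single cells show whether individual contacts stop at the same place.

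The 29 cells had 40279 to 258225 recovered reads, with a median of 126621, and 1 read was worth a median OE of 0.0940 to 0.605. Cells 13, 15 and 17, which the rule leaves out, had 985, 1221 and 1755 reads. Over 406 pairs of the 29 cells the OE values correlated with Pearson's r of 0.298 to 0.728, so no pair was near-identical. The labels do not say whether the cells came from separate cultures, and p-values measure the spread between these cells.

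The domains covered 33.2% of the 25097 autosomal bins. The background of the 20% limit was 40.8% of these bins, and domains held 81.4% of the bins that passed it. The remaining passing bins lay in runs shorter than 10 bins, and 221 of all 954 runs were single bins. Domain length had a median of 2.0 Mb, quartiles of 1.375 and 3.0 Mb, and a longest value of 14.2 Mb. At the length limit, the 27 domains of exactly 10 bins had a mean contact frequency of 61.4% and the 25 runs of 9 bins had 54.7%. At the frequency limit, 61 ends had exactly 6 of 29 cells (20.7%) in contact in the first bin inside, with a mean OE of 0.612. There were 97 ends with 5 of 29 cells (17.2%) in the first bin outside, with a mean OE of 0.515.

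Contact frequency changed most at the end itself and kept changing for several bins inward. From the third bin inside to the third bin outside, the mean frequencies over ends were 64.5%, 58.6%, 42.6%, 8.08%, 14.3% and 18.2%. The mean OE over the same positions was 1.99, 1.70, 1.13, 0.331, 0.452 and 0.577. The step between the first bin inside and the first bin outside is built into the rule, which asks for at least 20% on one side and less on the other, whereas the second and the third bins outside are under no limit. For comparison, domain bins more than 3 bins from both ends had a frequency of 75.5% and an OE of 2.50, and bins outside domains and away from ends had 6.27% and 0.213.

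Few ends, as placed by the rule, went from 50% or more of the cells to none between adjacent bins. The rule sets each end beside a bin under 20%, which partly sets the level of the first bin inside. The position of a border within a bin is not seen, so the sharpness of the borders themselves was not tested. The first bin inside reached 50% of the cells at 212 ends (31.9%, against a background of 29.4% of all autosomal bins), and the third bin inside did so at 75.2% of ends. A frequency of 80% (background 13.6%) was reached in the first bin inside at 2.71% of ends and in the third at 25.2%. Going inward, the first bin at 50% or more was a median of 2 bins from the end (quartiles 1 and 3), and the first at 80% or more a median of 4 bins (quartiles 3 and 7) among the 512 ends whose domain had such a bin. Going outward, the first bin in contact in no cell was a median of 3 bins away (quartiles 2 and 9) at 650 ends, and it was the first bin outside at 144 ends. That is 21.9% of ends with an outside bin, and 43.2% of all autosomal bins were in contact in no cell. At 36 ends (5.42%) a bin in contact in 50% or more of the cells lay directly beside a bin in contact in none. The share of such pairs over all adjacent bins was not computed, so this count is a description only.

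In domains of 2 Mb or more the frequency was still higher beyond the 3 bins of the border. At 350 ends of such domains the frequency was 43.4% in the first bin inside, 70.9% in the fourth, 73.8% in the fifth and 77.5% in the tenth. Outward from the same ends it was 7.74% in the first bin, 20.8% in the fourth and 31.9% in the tenth, over 338 to 345 ends with a valued bin. The tenth bin outside was thus above the first, and the tenth inside above all bins before it.

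Contact resumed close by at some of the ends. Of 656 ends with all 3 outside bins, 425 (64.8%) had each of them under the 20% limit, and 231 (35.2%) had the second or the third outside bin at or above it. In the second bin outside this was so at 164 ends. In all, 352 of the 1824 outside bins (19.3%) were at or above the limit, against the background of 40.8% of all autosomal bins. The rule keeps the first bin outside under the limit and the background includes the domain bins, so these shares are of unlike bins. An outside bin belonged to another domain at 94 ends. Among 291 neighbouring domains without missing bins between them, 32 pairs were 1 bin apart, 15 pairs 2 bins apart, and the median gap was 1.6 Mb.

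At the 425 ends without renewed contact the frequency was 40.8% in the first bin inside and 7.40%, 3.99% and 3.81% in the 3 bins outside. At the 231 ends with renewed contact it was 45.7% in the first bin inside, and 9.39%, 33.1% and 44.8% outside. The first bin outside was thus low in both classes, and the classes differ by their definition in the bins after it. Of the other ends, 6 had no valued adjacent bin outside and 2 had 1 or 2.

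**Figure D1:**
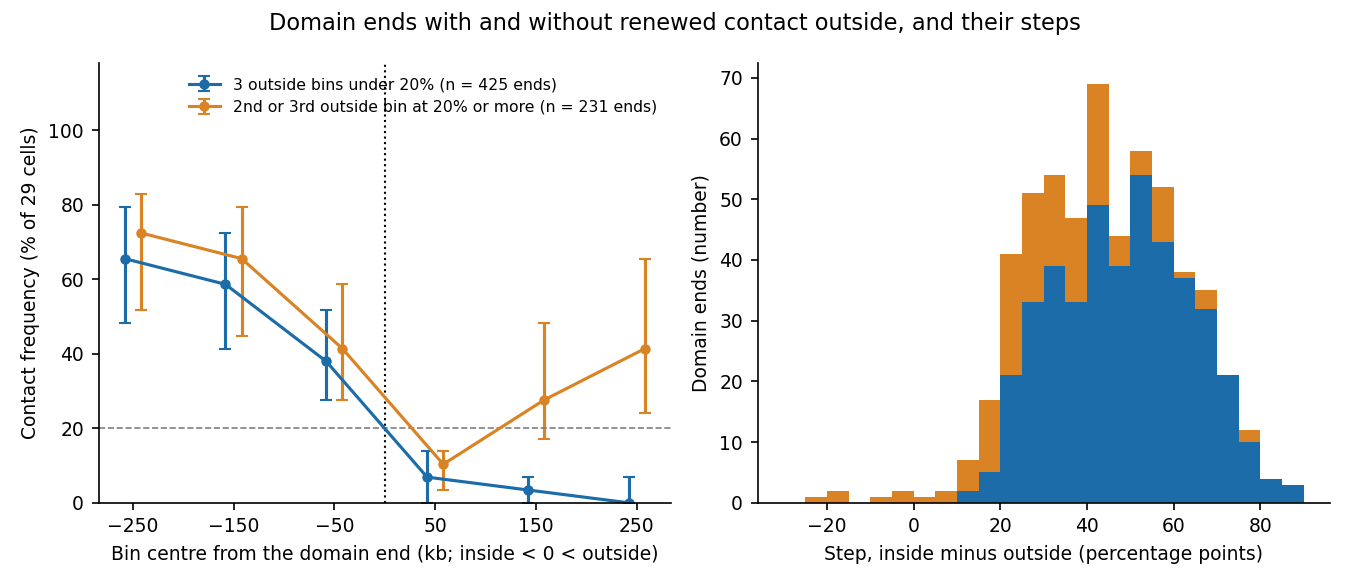
Contact frequency (percent of 29 cells, median and quartiles over ends) by distance of the bin centre from the domain end in kb (left), for ends without (blue) and with (orange) an outside bin at 20% or more, and the number of ends by step, the mean frequency of the 3 bins inside minus the 3 outside (right, stacked, same colours). The median at the ends without renewed contact reaches 0 in the third bin outside. By the definition of the classes, steps below 0 can occur only at ends with renewed contact.

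To measure the borders in cells that had not chosen them, each of the 29 cells was left out in turn, domains were defined from the other 28, and the ends were measured in the cell left out. Domain ends moved little between these definitions. Between 329 and 336 domains were found, and 562 of the 664 ends (84.6%) lay at the same bin whichever cell was left out, while 608 (91.6%) stayed within 1 bin.

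In the cells left out, 55.2% ± 9.81 of the bins inside the ends were in contact and 15.0% ± 4.02 of the bins outside (SD, n = 29). The cells ranged from 38.8 to 75.3% inside, with a median of 52.4%, and from 7.72 to 22.3% outside, with a median of 14.9%. The lowest cell inside was thus above the highest cell outside. The step was 40.2 percentage points ± 6.88, between 29.5 and 53.0 points, and positive in 29 of 29 cells (two-sided sign-flip permutation test with 100000 resamples, p = 1e-05, the smallest they can give; adjusted p = 1.29e-05 over 9 tests). The ends were chosen by a drop in the other 28 cells, so the test asks only whether that drop recurs in the cell left out. The size of the step is partly set by this choice. Of all autosomal bins in these cells, 27.9% were in contact.

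The OE showed the same order. It averaged 1.62 ± 0.0905 inside and 0.482 ± 0.103 outside (SD, n = 29), with cells from 1.41 to 1.79 inside and from 0.281 to 0.640 outside. The step of 1.14 ± 0.0594 was positive in 29 of 29 cells (sign-flip permutation test, adjusted p = 1.29e-05). This test too asks only whether the drop recurs, and the choice of ends partly sets the size of the step. In the first bin outside, cell 10 stood above the other cells with a mean OE of 0.823, against 0.557 in the next cell. The highest of its bins there had an OE of 144 from 1 read. That bin lay on chromosome 13 (hg19, 86800001 to 86900000), and its expected reads were 0.00316 of the median.

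**Figure D2:**
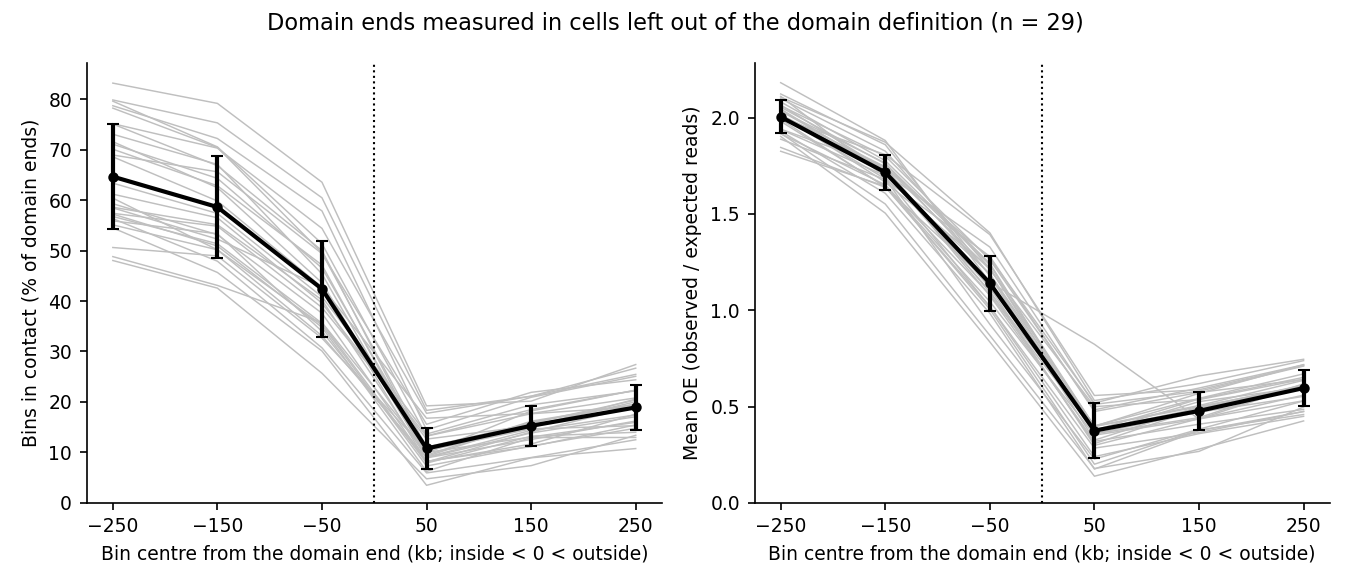
Percent of domain ends in contact (left) and mean OE (right) by distance of the bin centre from the domain end in kb, in each of 29 cells left out of the domain definition (grey lines), with mean and SD over cells (black). Every cell falls across the end, and the mean of 42.4% in the first bin inside stands beside 10.8% in the first bin outside.

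Inside the domains, the end was less often in contact than the bins behind it. The first bin inside was in contact at 42.4% ± 9.48 of the ends and the third at 64.7% ± 10.3 (SD, n = 29), a difference of -22.3 points ± 3.74 that was negative in 29 of 29 cells (sign-flip permutation test, adjusted p = 1.29e-05). This difference was -25.1 points with a 10% limit, -15.2 with a 40% limit and -13.0 with a 50% limit. The 3 bins inside, with 55.2%, were below the domain interior, with 75.4% ± 9.65, by -20.2 points ± 4.03 in 29 of 29 cells (adjusted p = 1.29e-05, same permutation test). With limits of 10%, 40% and 50% it was -27.6, -12.8 and -10.2 points. The rule places each end beside a bin under the limit, so the direction of both differences is partly set by the rule. The tests cannot separate that part.

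Outside, the first bin was in contact at 10.8% ± 4.07 of the ends and the third at 18.9% ± 4.44 (SD, n = 29), a difference of -8.13 points ± 1.88 in 29 of 29 cells (sign-flip permutation test, adjusted p = 1.29e-05). The rule limits the first bin and not the third, so this direction is partly set by the rule. The difference was -1.72 points with ends beside another domain left out, -2.65 with a 40% limit and -1.07 with a 50% limit (permutation tests, adjusted p = 1.29e-05, 6.43e-05 and 0.0618). At ends whose 3 outside bins were all under the limit in the other 28 cells, it was 4.61 points in the opposite direction, which follows from keeping ends by their outside bins and is given with no test. The 3 bins outside, with 15.0%, were above other bins outside domains, with 6.47% ± 1.74, by 8.51 points ± 2.58 in 29 of 29 cells (adjusted p = 1.29e-05, permutation test). The groups are unlike, because outside bins may lie in another domain (158 of 1824 with all 29 cells) and the other bins may not. The difference between them was 15.9 points with a 40% limit, 18.6 with a 50% limit, 4.73 with ends beside another domain left out and 1.43 with domains of 20 or more bins (permutation tests, adjusted p = 1.5e-05, 1.5e-05, 1.29e-05 and 0.00385). At ends kept because all 3 outside bins were under the limit it was -1.09 points, against other bins that were not filtered in this way, so that its sign follows from the choice of ends. A higher limit also lets outside bins have higher frequencies. A longer minimum length counts shorter contacted runs as outside domains. The sizes at those settings are thus partly set by the rule.

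Of the steps from contact to no contact in single cells, the largest mean share fell at the common border, where the rule also places the drop in frequency. Going outward over the 5 boundaries between the 6 bins, 18.0% of these steps fell between the third and second bins inside and 27.8% between the second and first. At the domain end itself the share was 40.5%, and farther out the shares were 7.46% and 6.23%. The share at the end was 33.0% in the lowest cell and 49.8% in the highest, with a median of 41.3%. It exceeded the mean of the 4 other boundaries, 14.9% ± 1.14, by 25.7 points ± 5.71 in 29 of 29 cells. The direction of this difference follows from how the ends were chosen, so it is given with no test. Over the 29 cells the share at the end moved with log10 reads (Pearson's r 0.850). With every cell thinned to 40279 reads the difference was 19.7 points. The part of depth in the spread between cells was not tested. Of the other boundaries, both inner ones had larger shares than both outer ones on average.

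**Figure D3:**
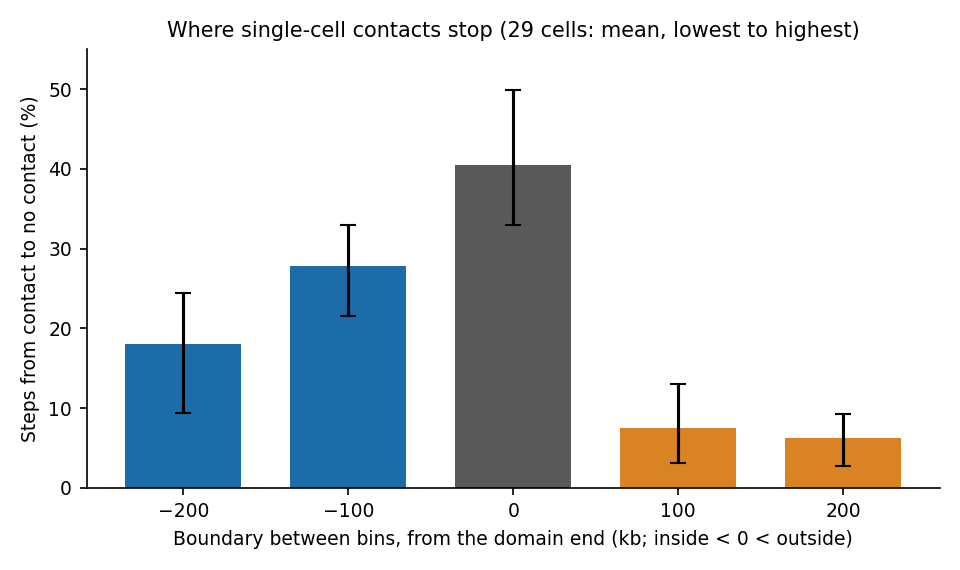
Share of the steps from contact to no contact (percent of all such steps in a cell, going outward) at each of the 5 boundaries between the 6 bins, by distance from the domain end in kb. Bars give the mean of 29 cells left out of the definition and whiskers the lowest and highest cell: 40.5% at the end, 27.8% and 18.0% inside, 7.46% and 6.23% outside.

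Taken window by window, the exact border was 1 pattern among several. On average over cells, 16.8% ± 4.78 of the windows had all 3 inside bins and no outside bin in contact (SD, n = 29; 8.77 to 26.2%). Contacts ended 1 bin short in 12.6% and 2 bins short in 9.08% of the windows. They reached 1 bin past the end in 2.86%, 2 bins past it in 1.15%, and covered all 6 bins in 2.28%. No bin of the window was in contact in 21.6% ± 8.13 of the windows. The remaining 33.6% ± 4.21 held at least 1 step from no contact to contact going outward.

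Outside contact in a cell went with inside contact in the same cell. Where the first bin inside was in contact, the first bin outside was in contact in 19.2% ± 5.48 of the windows, against 4.25% ± 1.80 where it was not (SD, n = 29). The mean OE of the first bin outside was 0.603 ± 0.241 in the first case and 0.201 ± 0.0676 in the second. The medians over cells were 0.573 and 0.207, and the highest cells had 1.66 and 0.323. Adjacent bins differ between ends as well as between cells, and these shares pool both. In 33.9% ± 18.0 of the windows with contact in the first bin inside, the first bin outside had no read at all, from 8.31% to 69.9% over cells.

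The 2 ends of a domain were often in contact in the same cells. An end was counted as in contact where at least 2 of its 3 inside bins were. In the cells left out, both ends were in contact in 40.1% ± 12.7 of the domains, 1 end in 33.9% ± 4.63 and neither in 26.0% ± 10.0 (SD, n = 29). From the shares of the 2 kinds of end in the same cell, 33.7% with both and 46.6% with 1 end would follow, and the share with both was above that in 29 of 29 cells. These shares leave out that domains differ in frequency. Taken per domain over the 29 cells, both ends were in contact in a mean of 40.2% of the cells, against 33.4% from the product of the shares of its own 2 ends, and 306 of the 332 domains were above their product and 24 below. The products leave out that cells differ in depth, and the part of depth in this excess was not tested.

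The depth of a cell moved with these values. Over the 29 cells, which share the same ends, Pearson's r with log10 reads was 0.856 for the share inside, 0.657 for the share outside and 0.837 for the step (Spearman's rho 0.887, 0.711 and 0.837). With the 2 cells of most extreme depth removed, r for the step was 0.902. With every cell thinned to 40279 reads, 52.6% ± 7.55 of the bins were in contact inside and 16.4% ± 4.44 outside (SD, n = 29). The step was then 36.2 points ± 4.22, between 28.6 and 43.1 points. Its r with the reads before thinning was 0.681. Thinning equalised the total reads alone, and the part of depth in the relation was not tested further.

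The 3 shallow cells, which the rule did not use, also had a higher OE inside the ends than outside. From the third bin inside to the third outside, the mean OE of cell 17 was 2.26, 1.67, 1.41, 0.139, 0.336 and 0.471. Cells 13 and 15 had 0.941 and 0.864 in the first bin inside, against 0.185 and 0.137 in the first bin outside. Over the 1834 bins inside ends only and the 1666 outside ends only, cell 13 had 121 reads inside and 12 outside, cell 15 had 136 and 18, and cell 17 had 245 and 31. The inside share of these reads was 91.0% (exact binomial 95% interval 84.8 to 95.3%), 88.3% (82.2 to 92.9%) and 88.8% (84.4 to 92.2%), where the expected reads alone would give 52.9%. The intervals cover counting error only, and 3 cells cannot reach a p under 0.05 in a sign-flip test.

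**Figure D4:**
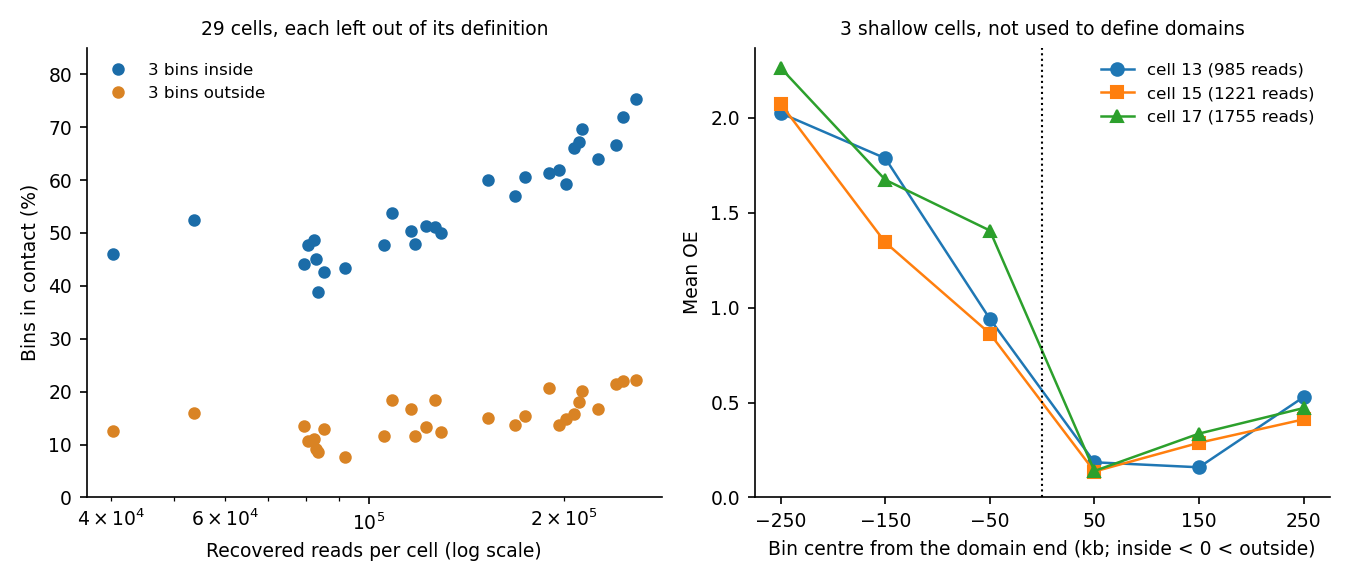
Percent of bins in contact inside (blue) and outside (orange) the domain ends against recovered reads per cell on a log scale, in 29 cells each left out of the definition (left), and mean OE by distance of the bin centre from the domain end in kb in the 3 shallow cells that the rule did not use (right). Inside values stay above outside values at every depth, and the shallow cells drop to an OE of 0.137 to 0.185 in the first bin outside.

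The number of reads expected per bin, recovered from the value of 1 read, differed little across the ends. Relative to the autosomal median it had a median of 1.02 in the first bin inside and 1.02 in the first bin outside, and medians of 1.02 to 1.03 in the other bins inside and of 0.995 to 1.00 in the other bins outside. Under 0.25 of the median were 1.36% of the first bins inside and 1.37% of the first bins outside, against 1.87% of all autosomal bins. How the expectation was made is not given in the sources used here.

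The mean steps of ends facing opposite ways depended on the settings in their order. The step was 39.4 points ± 6.99 at the 332 ends toward the low coordinate and 41.1 points ± 6.88 at those toward the high coordinate, a difference of -1.71 points ± 1.77 that was negative in 24 of 29 cells (SD, n = 29; sign-flip permutation test, adjusted p = 3.37e-05). The test takes the ends as fixed, while single ends differed in their steps with an SD of 17.6 points. The difference turned to 1.89 points with any read counted as contact and was -0.416 points in domains of 20 or more bins (permutation tests, adjusted p = 0.00151 and 0.436). Ends facing the centromere had a step of 39.8 points ± 7.17 and ends facing the chromosome end 40.7 points ± 6.79, and this difference of -0.878 points ± 2.39 did not pass the threshold (negative in 19 of 29 cells, permutation test, adjusted p = 0.0567). It turned to 3.59 points with contact at an OE of 0.5 (29 of 29 cells) and to 2.17 points with any read, and was -2.11 points at an OE of 2 and -2.53 points in domains of 20 or more bins (permutation tests, adjusted p = 1.12e-05, 0.000607, 0.000146 and 0.000129).

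Mean steps lay between 38.6 and 44.0 points in all 4 classes of domain length. In the cells left out, ends of domains of 3.0 Mb or more had 59.0% of the bins inside and 15.0% of the bins outside in contact, a step of 44.0 points ± 8.06 (SD, n = 29). Ends of domains of 1.0 to 1.3 Mb had 54.6% inside and 16.0% outside, a step of 38.6 points ± 6.14. The classes between them had steps of 38.8 points (1.4 to 1.9 Mb) and 39.4 points (2.0 to 2.9 Mb). The differences between classes were not tested.

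Chromosomes held different numbers of ends for their length. Among chromosomes with at least 10 ends, chromosome 4 had 72 ends, or 3.82 per 100 used bins, and chromosome 6 had 64, or 3.81. The fewest were 1.67 per 100 on chromosome 20, with 10 ends, and 2.05 on chromosome 7, with 32. Chromosomes 16 and 17 had 6 and 4 ends, and chromosome 19 and the chromosome given as 22:9 had none.

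At the ends of chromosome 4 the frequency was 58.0% inside and 12.9% outside, and at those of chromosome 6 it was 58.6% inside and 16.6% outside. On chromosome 20 it was 46.7% inside and 13.1% outside, and on chromosome 7 it was 49.6% inside and 17.2% outside. Chromosome 21 had the lowest inside frequency, 39.2%, over 10 ends, with 12.6% outside. The mean step was 45.1 points ± 19.6 on chromosome 4 and 26.6 points ± 16.5 on chromosome 21 (SD over 72 and 10 ends), and both SDs were close in size to the difference of the means.

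**Figure D5:**
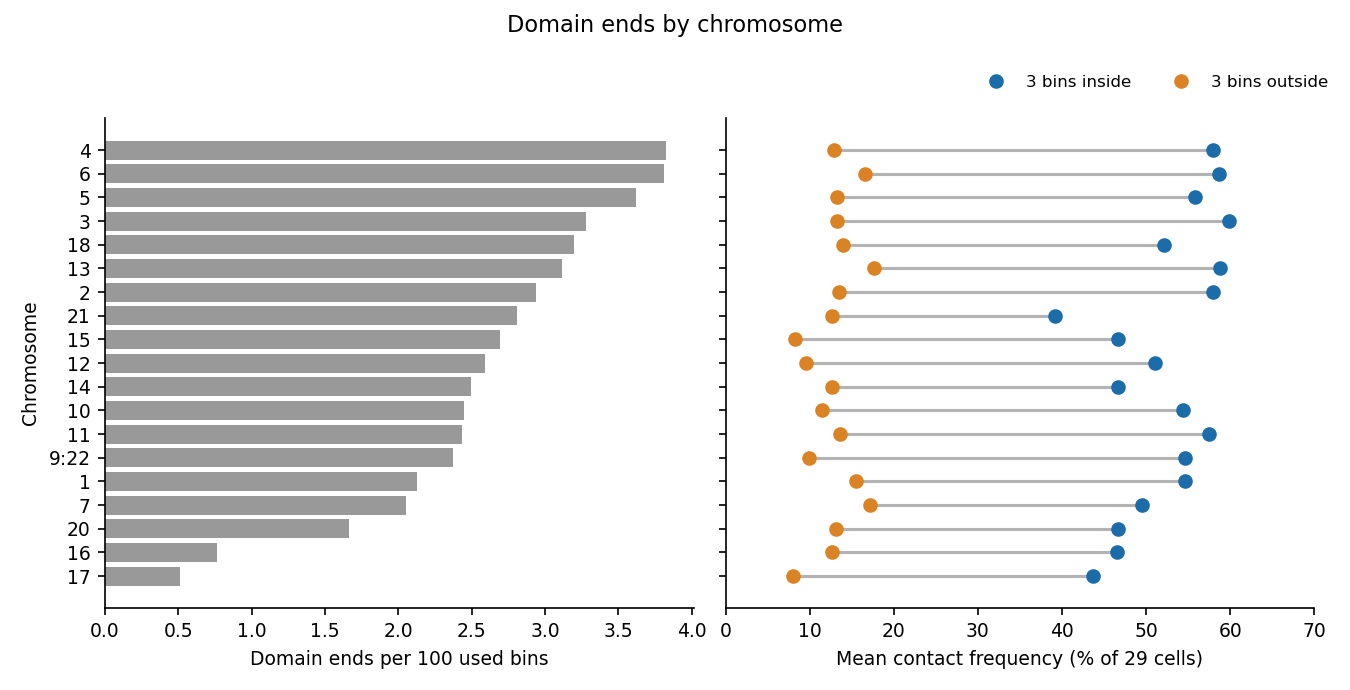
Domain ends per 100 used bins (left) and mean contact frequency of the 3 bins inside (blue) and the 3 bins outside (orange) the ends (right, percent of 29 cells) for the chromosomes with at least 1 end. Chromosomes 4 and 6 have the most ends per 100 bins, 3.82 and 3.81, and the outside frequency lies between 8.05 and 17.6% on every chromosome shown.

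Ends were sparse near chromosome ends and centromeres. Within 5 Mb of a chromosome end there were 21 domain ends, or 1.14 per 100 used bins, with frequencies of 42.9% inside and 10.3% outside. Within 5 Mb of the centromeric stretch there were 29, or 1.80 per 100 bins, with 51.6% inside and 14.5% outside. The rest of the autosomes held 614, or 2.84 per 100 bins, with 55.7% inside and 13.6% outside. The rule fixes where ends lie, so these counts are a description.

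Among 562 ends with all 6 bins valued and no other domain among the outside bins, the step in contact frequency had a median of 44.8 points and quartiles of 31.3 and 57.5 points. The 8 largest steps were 79.3 to 85.1 points, and the next was 79.3 points. Positions below are of hg19, and 9:22 and 22:9 are chromosome names of the table; KBM7 carries the Philadelphia translocation, which joins parts of these chromosomes.

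Chromosome 3 held 64 of all 664 ends and 4 of the 8 largest steps, and 3 of these 4 border successive domains. Cells in contact are given bin by bin going outward, at these and all ends below. The domain at 172500001 to 176700000 ended at 176700000, with 27, 28 and 23 of 29 cells in contact going outward in the bins inside and 3, 1 and 0 cells in the bins outside. The OE inside was 0.925 in the lowest cell, 3.78 in the median and 6.50 in the highest, against 0, 0.120 and 0.824 outside. The ranges of the cells did not overlap, and inside was above outside in 29 of 29 cells.

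The next domain, at 177700001 to 178700000, ended at 178700000 with 27, 27 and 26 cells inside and 1, 3 and 5 cells outside. The one after it began at 179500001, with 28, 27 and 23 cells inside and 3, 1 and 0 outside, and ran to 182600000. Its cells had an OE of 1.16 to 7.86 inside, with a median of 3.58, and of 0 to 0.841 outside, with a median of 0.0899. On the distal long arm of chromosome 3, which holds these 3 ends, bins in contact in no cell had a mean OE of 0.0718, against 0.0356 in the 10737 such bins elsewhere, and the part of this in the size of the steps was not tested. With that stretch left out, the step over the other ends was 40.02 points in the cells left out.

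The fourth end of chromosome 3 was at 159500000, the upper end of a domain of 1.0 Mb from 158500001, with 29, 25 and 23 cells inside and 1, 2 and 0 outside. On chromosome 4 a domain at 160400001 to 164400000 began with 27, 26 and 23 cells inside its lower end and 1, 3 and 0 cells outside. On chromosome 2 a domain at 153600001 to 157200000 began with 26, 25 and 21 cells inside and 0, 0 and 1 outside, the lowest outside frequency of the 8 ends (1.15%). Its OE was 0.462 to 5.07 inside, with a median of 2.14, and 0 to 0.403 outside, with a median of 0.0400. Here the outside value of the highest cell lay below the inside value of the lowest.

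The remaining 2 ends lay on 9:22, which held 32 of all 664 ends. The domain at 103400001 to 107500000 ended with 24, 25 and 23 cells inside its upper end and 0, 1 and 1 outside. The domain at 22500001 to 25800000 began with 27, 29 and 28 cells inside its lower end and 3, 7 and 5 outside. This end had the highest inside frequency of the 8, 96.6%, and also the highest outside frequency, 17.2%.

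The 8 smallest steps ran from 9.20 down to -24.1 points, and the next was 9.20 points. At 6 of them the step was below 0, and at each of these the first bin outside was under the limit while the second and the third were above it. On chromosome 2 a domain at 162900001 to 169000000 began with 9, 15 and 6 cells in contact inside, followed outward by 4, 24 and 23. The OE inside was 0 to 2.78 over cells, with a median of 0.553, and outside 0.112 to 4.98, with a median of 2.13. Inside was above outside in 2 of 29 cells, and the ranges overlapped.

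On chromosome 5 the domain at 83300001 to 86600000 ended with 8, 17 and 9 cells inside, followed by 0, 26 and 25. The first bin outside was thus in contact in no cell, between bins contacted in 9 and 26 cells. The domain at 110900001 to 112000000 of the same chromosome began with 12, 8 and 20 cells inside and 4, 19 and 23 outside. On chromosome 10 the domain at 66300001 to 69500000 began with 8, 8 and 6 cells inside and 2, 13 and 22 outside.

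The 4 other small steps lay on chromosomes 11 (end at 92900000, -3.45 points), 7 (87600001, -2.30 points), 6 (66400001, 3.45 points) and 21 (20900000, 9.20 points). At the chromosome 7 end no cell was in contact in the first bin outside, with 9 and 20 cells in the 2 bins after it. At the chromosome 21 end all 6 bins were low, with 10, 7 and 6 cells inside and 4, 8 and 3 outside. Over these 16 named ends the mean expected reads of the 3 outside bins were 0.869 to 1.13 of the autosomal median.

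At the ends of the 4 longest domains the steps ran from 39.1 to 78.2 points, and all but the lowest were at or above the median of 44.8 points. The longest, 14.2 Mb on chromosome 5 (17200001 to 31400000), had 16, 9 and 10 cells going outward inside its lower end and 0, 1 and 0 outside, a step of 39.1 points. Its upper end had 19, 17 and 10 cells inside and 1, 0 and 1 outside, a step of 50.6 points. The mean frequency of this domain was 81.2%, so the first bins inside were far below its interior.

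On chromosome 4 the domain of 10.3 Mb at 27100001 to 37400000 had steps of 44.8 points at its lower and 71.3 points at its upper end. The domain of 9.4 Mb at 174300001 to 183700000 had 49.4 points at its lower and 78.2 points at its upper end, where 25, 24 and 22 cells were in contact inside and 2, 0 and 1 outside. The domain of 9.1 Mb on chromosome 2 (76000001 to 85100000) had 62.1 points at its lower and 44.8 points at its upper end. At that upper end no cell was in contact in any of the 3 outside bins, and the median OE was 1.02 inside and 0 outside. In each of the 4 domains the 2 ends differed in their steps, which describes these ends and was not tested.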

How the data were processed

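Per the labels, GATC-flanked fragments methylated by Dam-lamin B1 in single sorted cells were amplified with 21 extension steps and sequenced. The tools Bowtie2 2.1.0 and cutadapt and the build hg19 are listed in the submitters' processing notes. The deposited values are ratios of observed to expected reads (OE) per 100-kb bin, per the file headers and values. How the expectation was made, and how duplicates were handled, is not given in the sources used here. Of 35 labelled samples in 1 group, 32 had a column, and samples 12, 14 and 16 were not analysed here. Chromosome 8 had no values.

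Reads were recovered as whole multiples of the OE of 1 read (100.0% of nonzero values within 0.01). Domains and their borders were chosen, and tests, lists and named ends set, with earlier results of these data known. Each of 9 results was a difference within a cell, tested over 29 cells, each measured at ends defined from the other 28, by a two-sided sign-flip permutation test (100000 resamples, Benjamini-Hochberg adjusted, threshold 0.05). The 28-cell definitions share most of their cells, and the test covers the spread between cells, not between ends. The p-value of the edge share is not printed, because the choice of ends sets its direction. Named ends were the 8 largest and 8 smallest steps among ends with all 6 bins valued, and no bin of another domain outside (ties by OE difference, then position), with the ends of the 4 longest domains. Chromosomes named for their number of ends were the 2 highest and 2 lowest with at least 10 ends, and others were named after their values were seen. The step code was tested on simulated data. Python 3.11.15, numpy 2.4.6, pandas 2.3.3, scipy 1.17.1 and matplotlib 3.10.9 were used.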

Additional observations from a re-analysis of the deposited data

How the results depend on the processing

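Of 158 recomputed tests, 137 kept their direction and side of the threshold and 21 did not. The step in contact stayed between 26.6 and 47.3 points, the step in OE between 0.347 and 1.41, the inner gradient between -25.1 and -13.0 points, inside minus interior between -31.3 and -10.2 points, and the edge excess, whose direction the choice of ends sets, between 11.1 and 30.1 points. The outer gradient ran from -10.4 to 4.61 points and outside minus other bins from -1.09 to 18.6 points. The first 5 results listed kept their call in every alternative run, and the last ones did not. The rule also partly sets the direction of the inner gradient and of inside minus interior, and the size of both steps. The highest step in contact, 47.3 points, came from leaving out ends with renewed contact, a choice that itself raises the step. With domains from all 29 cells (41.7 points) the measured cell took part in choosing its ends. The low minus high difference (adjusted p up to 0.943 over its alternatives) did not pass at -0.0250 points with contact at an OE of 0.5, -0.0445 with a 40% limit, -0.283 with a 50% limit, -0.416 with domains of 20 or more bins and -0.371 with thinned reads and without the 8 sparsest cells, and it turned to 0.244 with an OE of 2 and 1.89 with any read. The centromere minus telomere difference turned to 3.59 (OE of 0.5), 2.17 (any read), 0.000631 (ends beside another domain left out) and 0.830 (thinned, without the 8 sparsest cells). It passed at -2.11 (OE of 2), -1.52 (40%), -2.19 (50%), -2.53 (20 bins), -0.996 (5 bins per side), -1.63 (without the 8 sparsest cells) and -1.003 (domains from all 29 cells). The outer gradient did not pass at -1.07 with the 50% limit and turned to 4.61 at ends without renewed contact, where outside minus other bins turned to -1.09, and both turns follow from choosing ends by their outside bins. The number of domains was 175 with 20 or more bins, and 9 of 10 recomputed counts were within 1.5 times of 332. The other causes were not tested. Leaving out ends with renewed contact, thinning together with leaving out sparse cells, and the domain count after thinning were chosen after seeing the data. Gradients were not run with 2 or 5 bins per side. In the 3 shallow cells 1 read was worth a median OE of 13.7 to 24.9, so contact calls there carry no level.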

Other observations

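Chromosome X, which the autosomal rule leaves out, gave 26 domains with 52 ends under the same limits, or 3.50 ends per 100 used bins, against 2.65 on the autosomes. Domains took up 43.8% of its 1487 used bins and had a median length of 1.9 Mb. The frequency over the 29 cells was 59.6% in the bins inside and 15.1% in the bins outside the ends. In cells left out of the definition, 59.8% of the bins inside and 16.4% of those outside were in contact. The step was 43.4 points ± 9.46 (SD, n = 29), from 24.7 points in the lowest cell to 60.03 points in the highest.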
